A study of Arabidopsis thaliana with 8 samples.

Results

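The response to benzyladenine (BA, a synthetic cytokinin) of shoots that lack the response regulators ARR1, ARR10 and ARR12 was described from 4 of the 8 arrays of an Arabidopsis thaliana study. The 4 arrays were chosen by their titles and form 2 groups: arr1,10,12 mutant seedlings given 10 µM BA in liquid medium for 1 h (2 arrays) and arr1,10,12 mutant seedlings given the solvent DMSO for 1 h (2 arrays). The other 4 arrays are wild type given BA (2 arrays) and wild type given DMSO (2 arrays) and were used to set the mutant's response beside that of wild type. All seedlings were 14 days old, had grown under continuous white light on medium with sucrose, and lost their roots before freezing according to the protocol, although the tissue label reads seedling. Both mutant groups carry the same 3 gene disruptions, and the labels leave unsaid whether 1 line or several were used and whether mates in a group were grown apart. The p-values therefore measure only the spread between these samples, which may be technical.

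Cytokinin is sensed by histidine kinase receptors, which pass a phosphate through transfer proteins to response regulators. The type-B response regulators, to which ARR1, ARR10 and ARR12 belong, are transcription factors that switch on the primary response genes. Among those genes are the type-A response regulators, which lack a DNA-binding domain and dampen the signal, and enzymes that modify cytokinin.

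Each deposited value is a ratio, mostly to the median of that probe set over the 8 arrays, and is called a relative value here. It compares arrays for 1 probe set and gives no level that could be set against another gene. Log2 changes are BA over DMSO, so that a negative value is lower with BA. ARR1, ARR10 and ARR12 had 0 probe sets with a single gene name, so the disruptions were not checked here. The annotation used leaves 8730 probe sets without a gene name and gives several to 503.

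Mutant DMSO replicate 1 stood apart from the other arrays. Its 5′ to 3′ ratio, the median over 6 pairs of control probe sets, was 0.353, against 1.06 and 1.00 on the mutant BA arrays, 0.993 on mutant DMSO replicate 2 and 1.01 to 1.11 in wild type. The control probe set for large-subunit ribosomal RNA had a relative value of 197 on that array, against 0.666 to 3.48 on the other 7. Mates differed by over 2-fold in 3.34% of probe sets in the mutant BA group and in 17.9% in the mutant DMSO group, against 0.972% and 0.747% in the wild-type BA and DMSO groups. The file names in the labels share 1 prefix for both mutant BA arrays and mutant DMSO replicate 2, a different one for mutant DMSO replicate 1, and one of their own for the 4 wild-type arrays. What the prefix stands for is not stated. Each result is therefore given against mutant DMSO replicate 2 alone (7 arrays fitted, the single DMSO array being assumed to vary like the other groups) and against both mutant DMSO arrays (8 arrays fitted).

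Neither type-A response regulator with a named probe set passed the test of BA against DMSO in the mutant. RR16 (ARR16) had relative values of 0.609 and 0.748 in mutant BA shoots, against 0.618 and 0.647 in mutant DMSO shoots (replicates 1 and 2). All 4 arrays lay close together and the groups overlapped. RR16 is among the probe sets called dim here, whose median relative value over all arrays fell below a set limit. A stricter filter leaves these out. The label rests on ratios and not on a measured signal, and signal over background was not analysed. Closeness of its mutant values is therefore no measure of how well a change could be seen. The log2 change was 0.06 ± 0.20 (SE) against DMSO replicate 2, with a 95% confidence interval of -0.41 to 0.53, and 0.09 ± 0.17 against both arrays, with an interval of -0.31 to 0.50. In wild type the same probe set stood at 3.93 and 3.85 with BA, against 0.926 and 0.783 with DMSO, so that no mutant array reached the lowest wild-type DMSO value. The BA change in the mutant was below that in wild type by 2.13 log2 units with replicate 2 alone (limma, adjusted p = 0.035) and by 2.10 units with both arrays (adjusted p = 0.167).

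The other one, ARR15, had relative values of 0.728 and 0.809 in mutant BA shoots, against 0.618 and 0.507 in mutant DMSO shoots. Both BA values lay above both DMSO values, but the difference did not pass the test. ARR15 is a dim probe set as well. The log2 change was 0.60 ± 0.51 (SE, interval -0.63 to 1.82) against replicate 2 and 0.46 ± 0.44 (interval -0.60 to 1.51) against both arrays, with adjusted p-values of 0.998 and 0.756 from limma. In wild type the values were 6.16 and 2.23 with BA, against 0.635 and 0.613 with DMSO. The difference between the genotypes in the ARR15 change was -1.97 log2 units and did not pass (adjusted p = 0.315, replicate 2 alone).

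UGT76C1 and UGT76C2 encode enzymes that attach glucose to cytokinins. UGT76C2 had relative values of 0.544 and 0.896 in mutant BA shoots, against 0.973 and 0.498 in mutant DMSO shoots, and the groups overlapped fully. Its log2 change was 0.49 ± 0.38 against replicate 2 and 0.00 ± 0.42 against both arrays. UGT76C1 had values of 0.697 and 1.09 with BA, against 1.06 and 1.03 with DMSO, and its log2 change was -0.25 ± 0.31 against replicate 2 and -0.27 ± 0.26 against both arrays. Of the remaining type-B regulators, RR18 had relative values of 0.571 and 0.599 with BA, against 0.851 and 0.465 with DMSO. RR19 had 0.734 and 0.797 with BA, against 0.706 and 0.721 with DMSO. RR18 and RR19 are also dim probe sets. Neither passed, and the receptors and phosphotransfer proteins (9 genes listed) had 0 named probe sets.

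**Figure D1:**
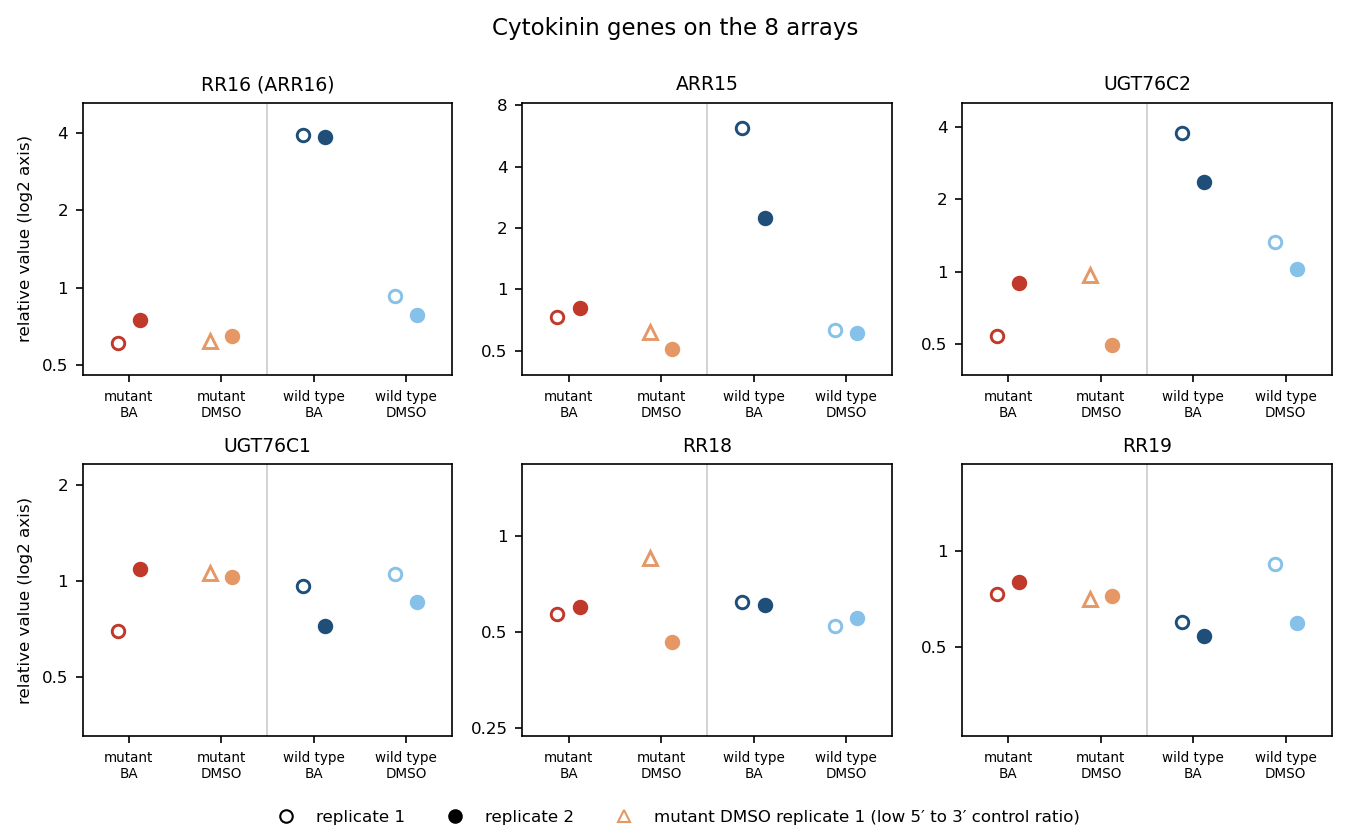
Relative value (log2 axis) of 6 cytokinin genes on each of the 8 arrays, with the mutant left of the grey line and wild type right of it. Open symbols are replicate 1, filled symbols replicate 2, and the triangle is mutant DMSO replicate 1. RR16 lies between 0.609 and 0.748 on all 4 mutant arrays, whereas the wild-type BA arrays stand at 3.93 and 3.85. RR16, ARR15, RR18 and RR19 are called dim by their median relative value, not by a measured signal.

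Across the arrays, few differences between BA and DMSO in the mutant passed the test, and all that did were lower values with BA. Against DMSO replicate 2 alone, 8 of 22746 probe sets passed (0.0352%, limma with Benjamini-Hochberg adjusted p under 0.05), 0 of them higher. Against both DMSO arrays, 0 passed (0%), and the lowest adjusted p was 0.488. At an unadjusted p under 0.05 there were 490 higher (2.15%) and 981 lower probe sets (4.31%) against replicate 2. Against both arrays there were 508 higher (2.23%) and 707 lower (3.11%). Together the probe sets against both arrays were 1215 (5.34%), near the 1137 that would be expected by chance at that threshold. Against replicate 2 the higher and lower probe sets together exceeded that number.

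The 2 DMSO arrays gave different pictures of the response. Both BA arrays lay over 2-fold below DMSO replicate 2 in 208 probe sets (0.914%) and over 2-fold above it in 22 (0.0967%). Against DMSO replicate 1 there were 1203 below (5.29%) and 1513 above (6.65%). Both BA arrays lay over 2-fold below both DMSO arrays in 19 probe sets (0.0835%), which is 9.13% of the 208 and 1.58% of the 1203. The 10 (0.044%) that lay over 2-fold above both were 45.5% of the 22 and 0.661% of the 1513. Of the 208 probe sets lower than DMSO replicate 2, 178 (85.6%) had that array as the highest of all 8, wild type included.

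**Figure D2:**
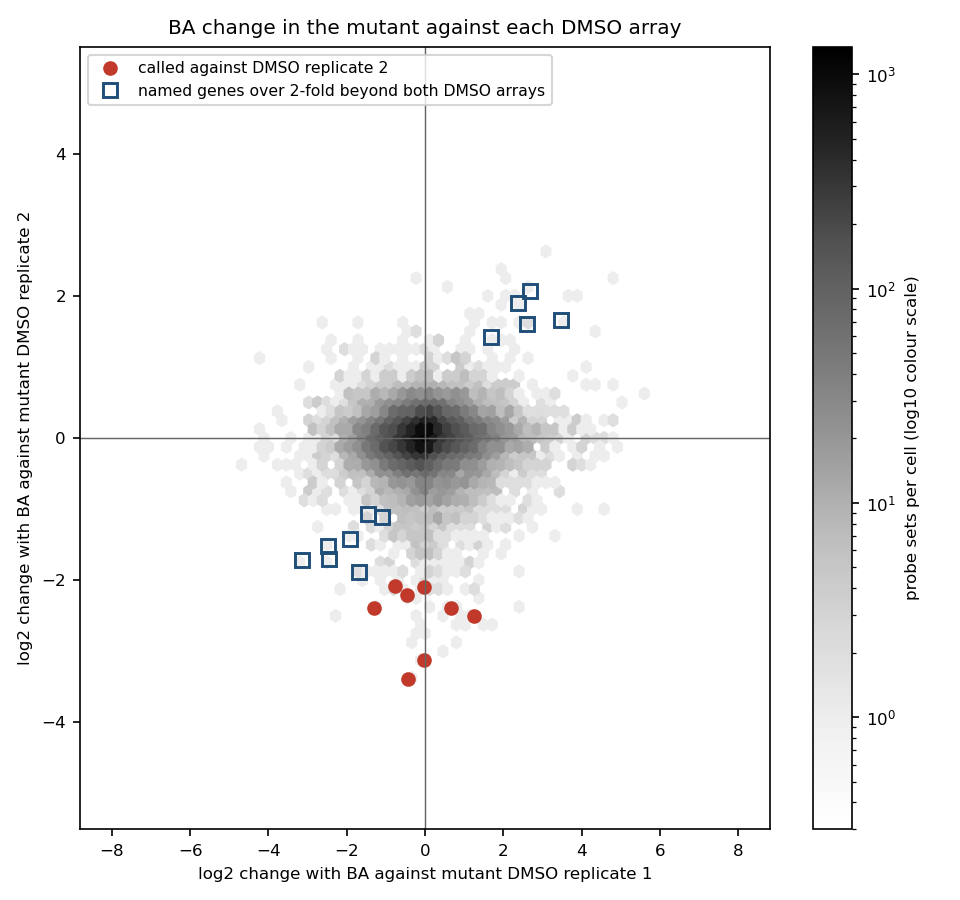
Log2 change with BA in the mutant (mean of both BA arrays) against mutant DMSO replicate 1 (horizontal axis) and against mutant DMSO replicate 2 (vertical axis). Grey cells count all 22746 probe sets on a log10 colour scale, red points are the 8 probe sets called against replicate 2, and blue squares are the 12 named genes that lay over 2-fold beyond both DMSO arrays. The red points spread around 0 on the horizontal axis, between -1.30 and 1.24.

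The 8 called probe sets shared 1 pattern: a high value on mutant DMSO replicate 2 and lower values on the 7 other arrays. Those 7 were not level for each of the 8. The largest change was that of 247360_at, which has no gene name here. Its relative values were 0.601 and 0.967 with BA, against 1.03 and 8.01 on DMSO replicates 1 and 2, and the log2 change was -3.39 ± 0.29 against replicate 2 (adjusted p = 0.0413) and -1.92 ± 0.86 against both. The lowest adjusted p, 0.00581, belonged to 261037_at, also unnamed here, with relative values of 0.906 and 0.931 with BA, against 0.940 and 8.01 with DMSO. DMSO replicate 1 lay beside the BA arrays for that probe set, and its log2 change was -3.12 ± 0.15 against replicate 2 and -1.58 ± 0.87 against both arrays. The third unnamed probe set, 260405_at, had 0.788 and 0.910 with BA, against 2.09 and 4.44 with DMSO. For 260405_at the BA arrays were below each DMSO array, with log2 changes of -2.39 ± 0.19 and -1.85 ± 0.34. The wild-type log2 changes of the 8 ran from -0.51 (AT1G22810) to 1.74 (247360_at). In wild type, 247360_at had 1.96 and 2.25 with BA, against 0.601 and 0.654 with DMSO.

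Of the 5 called probe sets with a gene name, 2 belong to genes for calmodulin-like proteins, which bind calcium. CML37 had relative values of 0.707 and 0.697 in mutant BA shoots, against 1.20 and 2.96 in mutant DMSO shoots. Both BA values lay below both DMSO values, and the log2 change was -2.08 ± 0.17 against replicate 2 and -1.42 ± 0.39 against both arrays. AT1G76640 (CML39) had 0.901 and 0.784 with BA, against 0.867 and 3.60 with DMSO, so that DMSO replicate 1 fell between the BA arrays. Its log2 change was -2.10 ± 0.19 against replicate 2 and -1.07 ± 0.59 against both arrays. In wild type AT1G76640 was higher with BA, at 1.34 and 1.24, against 0.713 and 0.599 with DMSO. The gene table gives the synonym CML39 to both of these genes, which were told apart here by locus. Both probe sets are among those called dim by their median relative value, which a stricter filter leaves out.

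AT3G02840 had relative values of 0.812 and 0.991 with BA, against 1.24 and 4.15 with DMSO, and both BA values were the lower ones. AT1G22810 had 1.32 and 1.44 with BA, against 0.876 and 7.20 with DMSO. AT5G56980 had 0.999 and 0.776 with BA, against 0.372 and 4.99 with DMSO. For AT1G22810 and AT5G56980, DMSO replicate 1 lay below both BA arrays, so the direction depended on the DMSO array: the log2 change of AT5G56980 was -2.50 ± 0.22 against replicate 2 and 1.24 against replicate 1. With both DMSO arrays the 8 log2 changes lay between -1.92 and -0.63, with adjusted p-values from 0.709 to 0.857.

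The 8 calls rested on single arrays. With any 1 wild-type array left out, none of the 8 passed against DMSO replicate 2. With mutant BA replicate 1 left out, most of the 8 no longer passed, and some probe sets outside the 8 did. With mutant BA replicate 2 left out, the 8 were joined by many others. Each of these fits leaves a further group with 1 array. With the mutant arrays fitted without wild type, 0 passed.

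**Figure D3:**
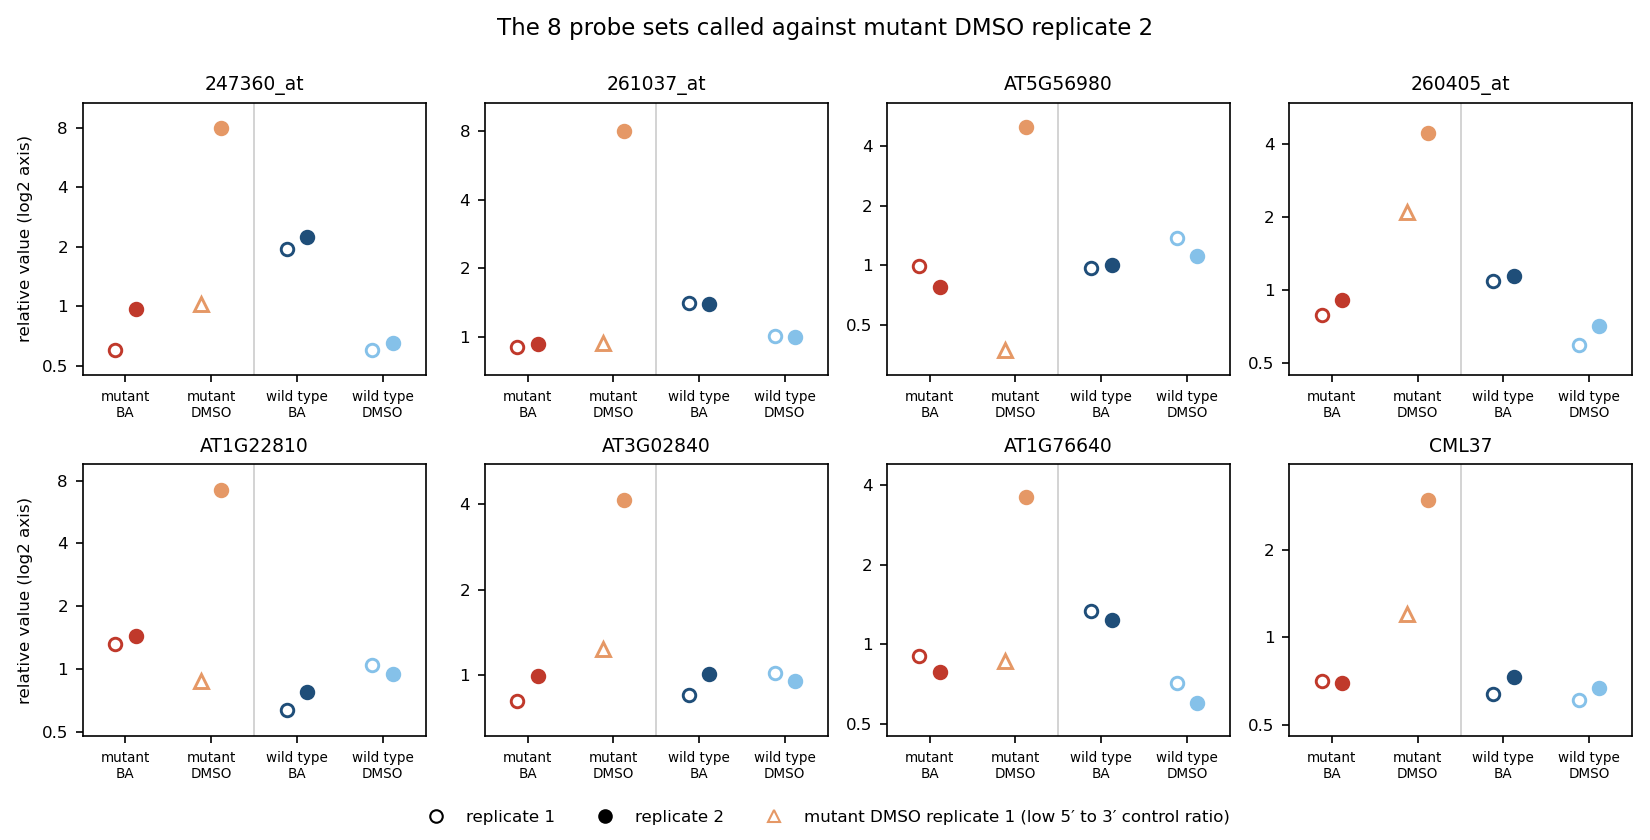
Relative value (log2 axis) of the 8 probe sets called against mutant DMSO replicate 2, on each of the 8 arrays. Open symbols are replicate 1, filled symbols replicate 2, and the triangle is mutant DMSO replicate 1. In all 8 panels mutant DMSO replicate 2 is the highest array, between 2.96 and 8.01.

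Some of the genes known to respond rapidly to touch, wounding or elicitors were lower with BA than on DMSO replicate 2. Of the 35 genes listed, 12 had a named probe set. Of these, 3 passed against replicate 2, all lower (CML37, AT1G76640 and AT1G22810), and 7 were lower at an unadjusted p under 0.05, where 4.31% of all probe sets were. The median log2 change of the 12 was -1.15 against replicate 2 and -0.69 against both arrays, whereas the median of all probe sets was 0.02 and -0.01. DMSO replicate 2 was the highest of the 8 arrays for 10 of the 12, and for 12.9% of all named genes. The list was chosen with earlier results of these data known, and the 12 include the 3 called genes. These shares and medians are therefore a description of 1 array and no independent support. The share of all probe sets that passed is given above. Against both arrays 0 of the 12 passed.

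Other members of that list were also highest on DMSO replicate 2 without passing. AT3G01830 had relative values of 0.877 and 1.14 with BA, against 0.983 and 6.64 with DMSO (log2 change -2.73 ± 0.28 against replicate 2, adjusted p = 0.0709). STZ, a zinc finger repressor of the stress response, had 0.960 and 1.04 with BA, against 0.304 and 1.97 with DMSO. The 2 DMSO arrays lay on either side of the BA arrays for STZ.

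The U-box ubiquitin ligases (PUB genes, 9 named) gave a median log2 change of -0.49 against replicate 2 and -0.14 against both arrays, and 0 passed. Among them PUB22, PUB23 and PUB24 are known to dampen immune signalling. PUB22 had relative values of 0.611 and 1.18 with BA, against 1.31 and 1.98 with DMSO. PUB24 had 0.666 and 1.32 with BA, against 1.78 and 1.79 with DMSO. For both genes each BA value lay below each DMSO value. That order held for 4 of the 9 PUB genes and for 15.1% of all probe sets. PUB23 had 1.21 and 1.05 with BA, against 0.598 and 2.61 with DMSO, and its groups overlapped.

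Other genes lay below each DMSO array, without passing the test. Both BA arrays were below both DMSO arrays in 3430 probe sets (15.1%) and above both in 3198 (14.1%), and 0 of these passed with both arrays. With 2 arrays per group such an order is common without any effect, so the shares alone show no response. The 12 named genes with the lowest p among those below both arrays had log2 changes of -2.43 to -0.79 with both arrays and -1.88 to -0.69 against replicate 2. AT1G10340 had the lowest p of them. Its relative values were 0.745 and 1.00 with BA, against 2.81 and 3.19 with DMSO, and the DMSO arrays stood close together. Its log2 change was -1.79 ± 0.20 with both arrays (adjusted p = 0.488) and -1.88 ± 0.23 against replicate 2 (adjusted p = 0.0796).

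GRX480 (ROXY19), a glutaredoxin that binds TGA transcription factors, was the only one of 11 listed early cytokinin targets outside the response regulators with a named probe set. Its relative values were 0.648 and 0.758 with BA, against 3.83 and 2.27 with DMSO. Both BA arrays were over 2-fold below both DMSO arrays, and the log2 change was -2.07 ± 0.26 with both arrays (adjusted p = 0.709) and -1.70 ± 0.19 against replicate 2 (adjusted p = 0.0769). In wild type the order was the opposite, with 1.24 and 1.50 under BA, against 0.696 and 0.728 under DMSO. The difference between the genotypes was -2.64 ± 0.25 log2 units with replicate 2 alone (adjusted p = 0.0218) and -3.01 with both arrays (adjusted p = 0.172).

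AT3G09405 had relative values of 0.518 and 0.663 with BA, against 2.19 and 1.57 with DMSO. AT5G38710 had 0.441 and 0.626 with BA, against 4.64 and 1.73 with DMSO, the DMSO arrays being far apart. Another of the 12 was cwINV6, annotated as a fructan exohydrolase, with 0.928 and 0.885 with BA, against 1.67 and 1.46 with DMSO. None of these passed in either comparison.

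Among the genes higher with BA than on each DMSO array, the 12 named genes with the lowest p had log2 changes of 0.57 to 1.55 with both arrays and 0.56 to 1.42 against replicate 2, and 0 passed (lowest adjusted p = 0.213). AT5G62130 led them, with relative values of 2.21 and 1.66 with BA, against 0.597 and 0.718 with DMSO. Its log2 change was 1.55 ± 0.23 with both arrays and 1.42 ± 0.26 against replicate 2. In wild type its values ran the other way, with 0.647 and 0.738 under BA, against 1.69 and 1.26 under DMSO.

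AT1G68570 (NPF3.1), a transporter of the nitrate and peptide transporter family, had 2.25 and 1.69 with BA, against 0.597 and 0.906 with DMSO. SPT (SPATULA), a bHLH transcription factor of carpel development and germination, had 1.11 and 1.08 with BA, against 0.747 and 0.729 with DMSO. The mates of SPT lay close together in both groups, and its log2 change was 0.57 ± 0.14 with both arrays (adjusted p = 0.709) and 0.59 ± 0.17 against replicate 2 (adjusted p = 0.461).

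**Figure D4:**
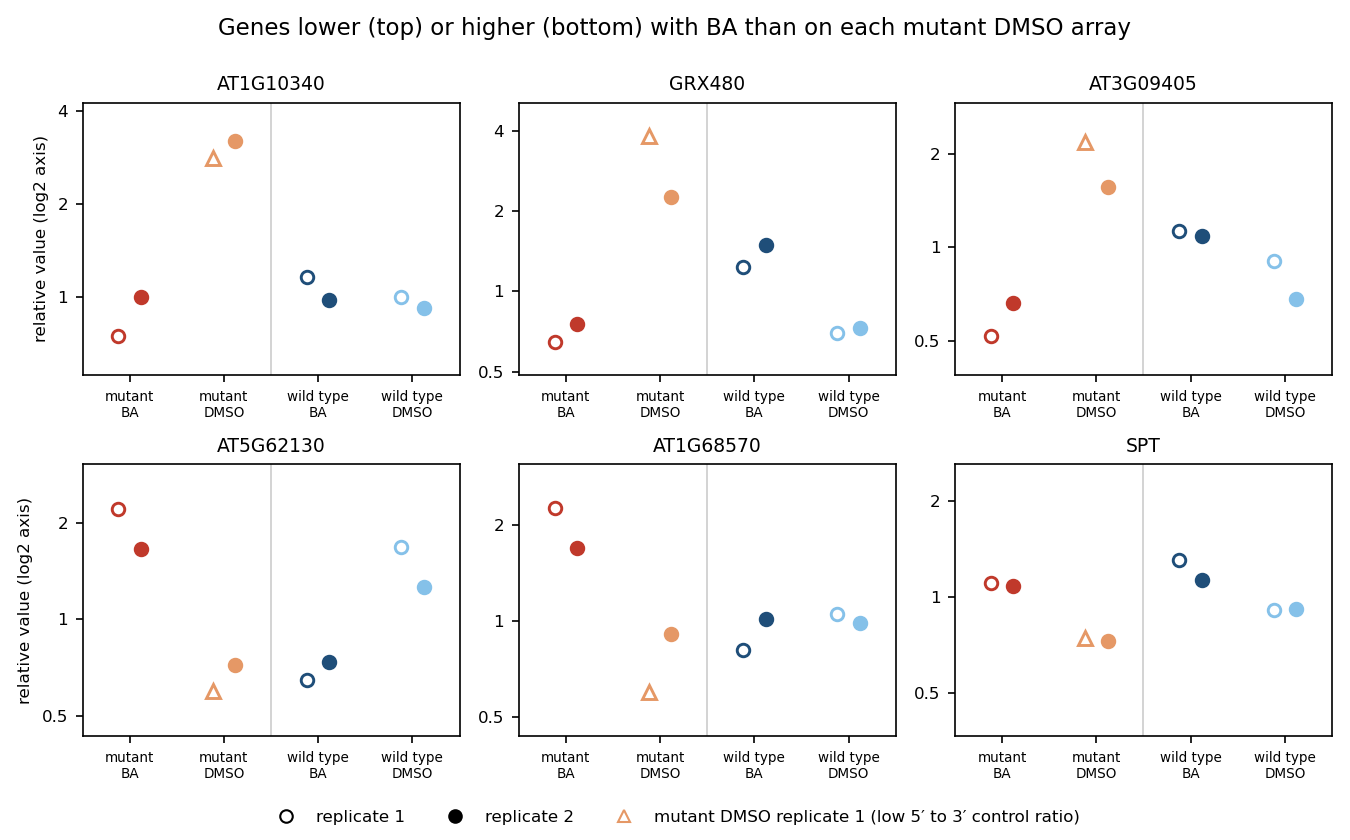
Relative value (log2 axis) on each of the 8 arrays of 3 genes lower with BA (top) and 3 genes higher with BA (bottom) than on each mutant DMSO array. Open symbols are replicate 1, filled symbols replicate 2, and the triangle is mutant DMSO replicate 1. GRX480 stands at 0.648 and 0.758 in mutant BA shoots, against 3.83 and 2.27 in mutant DMSO shoots.

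A change of over 2-fold in all pairings of BA with DMSO arrays was rare: 7 named genes were lower (0.0524% of 13355) and 5 higher (0.0374%). Those chosen in this way after their values were seen, and not described above, were psbA, AT4G36430 and AT3G10930 among the lower ones. The plastid gene psbA, which encodes the D1 protein of photosystem II, had relative values of 1.44 and 0.712 with BA, against 5.64 and 2.90 with DMSO. The ribosomal RNA control moved with it, at 1.44 and 0.845 with BA, against 197 and 3.48 with DMSO, and its part in the result was not tested. The 69 named plastid genes as a whole had a median log2 change of -0.13 against replicate 2 and 0.14 against both arrays.

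HRGP1, a hydroxyproline-rich glycoprotein of the cell wall, was among the higher ones, with 1.75 and 1.03 with BA, against 0.122 and 0.425 with DMSO. AT3G54580 had 1.51 and 1.11 with BA, against 0.253 and 0.347 with DMSO. AT5G06630 had 1.53 and 1.01 with BA, against 0.192 and 0.295 with DMSO, and AT4G08410 followed the same order. The mates of both wild-type groups differed by over 2-fold for each of these 4 genes: AT3G54580 had 0.781 and 2.94 in wild type with BA, against 3.12 and 0.885 with DMSO. For 3 of the 4 the probe set name marks probes that may match related genes, so their values are uncertain.

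Of 13 listed genes of the flavonoid path, 3 had a named probe set, all of them anthocyanin genes. Both BA arrays lay above both DMSO arrays for these 3, an order found in 14.1% of all probe sets. The higher values were mainly on 1 array. DFR (dihydroflavonol reductase) had relative values of 101 and 7.54 in mutant BA shoots, against 0.975 and 5.89 in mutant DMSO shoots. AT4G14090 had 47.0 and 2.51 with BA, against 1.22 and 1.80 with DMSO. UF3GT, a glycosyltransferase of anthocyanins, had 19.5 and 1.98 with BA, against 1.59 and 1.35 with DMSO. Mutant BA replicate 1 stood far above its mate for all 3 genes, and 0 of 3 passed, with log2 changes of 2.20 to 2.59 against replicate 2 and 2.08 to 3.53 against both arrays.

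The heat shock genes (6 of 15 listed had a named probe set) had a median log2 change of -0.14 against replicate 2 and -0.98 against both arrays, and 0 of the 6 passed. The small heat shock protein gene AT1G53540 had 0.730 and 0.741 with BA, against 4.24 and 0.958 with DMSO. AT5G48570 (ROF2), a heat-induced peptidyl-prolyl isomerase, had 0.374 and 0.351 with BA, against 4.72 and 0.299 with DMSO. For both genes DMSO replicate 1, the array with the low 5′ to 3′ ratio, was the highest of the 4 mutant arrays, and the part of RNA quality in this was not tested.

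For 3 genes of auxin response, chosen here after their values were seen, mutant replicates with the number 2 were high under both treatments. GH3.3, which joins auxin to amino acids, had 1.47 and 5.12 with BA, against 1.09 and 9.03 with DMSO. HAT2, a homeobox gene raised by auxin, had 1.56 and 3.17 with BA, against 0.236 and 5.55 with DMSO. IAA29, a repressor of auxin responses, had 1.19 and 2.42 with BA, against 0.726 and 4.85 with DMSO. For these 3 genes the BA arrays lay between the DMSO arrays, and 0 of them passed in either comparison. Both arrays numbered 2 lay above both numbered 1 for 4 of the 5 GH3 genes with a named probe set and for 1 of the 7 AUX/IAA genes, against 18.9% of all named genes.

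Of 18 root markers, 3 had a named probe set (EXPA7, EXPA18 and PYK10), and 0 passed. Their relative values ranged from 0.330 to 0.906 with BA, against 0.422 to 0.928 with DMSO, and none was at 0. As relative values they cannot show whether root tissue was present.

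Genes that responded to BA in wild type were set beside their change in the mutant. In wild type 516 probe sets passed with 7 arrays (2.27%) and 5 with 8 arrays (0.022%), and 402 of the 516 changed by over 2-fold there. In the mutant, against replicate 2, 10 of the 516 differed by over 2-fold between BA and DMSO in the same direction and 20 in the opposite direction. Against both DMSO arrays these counts were 11 and 99. Over all probe sets 0.387% were over 2-fold higher and 1.43% over 2-fold lower against replicate 2, and 2.17% and 1.42% against both arrays. Of the 192 probe sets raised in wild type, the mutant was over 2-fold higher for 3.12% and over 2-fold lower for 9.9% against replicate 2, and 4.17% and 17.2% against both arrays. Of the 324 lowered in wild type, it was over 2-fold higher for 0.309% and over 2-fold lower for 1.23% against replicate 2, a share near that of all probe sets. Against both arrays it was over 2-fold higher for 20.4% and over 2-fold lower for 0.926%. The excess of mutant-higher probe sets among these 324 was thus present with DMSO replicate 1 and not against replicate 2. Over all probe sets the mutant and wild-type changes had a correlation of -0.06 with replicate 2 and -0.27 with both arrays, as a description across probe sets, which are not independent.

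The 10 named genes that rose most in wild type, with log2 changes of 2.41 to 3.17, had a median log2 change in the mutant of 0.00 against replicate 2 and -0.48 against both arrays. COR15A, a gene for a cold-regulated chloroplast protein, had mutant values of 6.77 and 2.50 with BA, against 0.872 and 4.12 with DMSO. Wild type had 1.04 and 0.963 with BA, against 0.111 and 0.111 with DMSO. AT4G03610 had 0.842 and 0.928 with BA, against 1.05 and 0.824 with DMSO in the mutant, and 5.50 and 5.94 with BA, against 0.946 and 1.13 with DMSO in wild type. The change of AT4G03610 differed between the genotypes by -2.36 ± 0.24 log2 units (adjusted p = 0.0224, replicate 2 alone).

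AT5G47980 had the largest log2 change in the wild-type direction among the 10 in the mutant against replicate 2. It stood at 0.570 and 0.522 with BA, against 0.552 and 0.231 with DMSO, a log2 change of 1.24 ± 0.30 against replicate 2 (adjusted p = 0.345) and 0.61 ± 0.43 against both. DMSO replicate 1 lay within the range of the BA arrays.

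The 10 named genes that fell most in wild type, with log2 changes of -3.64 to -2.16, had a median log2 change in the mutant of 0.16 against replicate 2 and 1.10 against both arrays. AT2G15020 had relative values of 1.30 and 1.11 with BA, against 0.273 and 0.894 with DMSO in the mutant. In wild type it had 0.345 and 0.212 with BA, against 3.08 and 3.71 with DMSO. AT2G27420 had 1.45 and 1.03 with BA, against 0.687 and 0.966 with DMSO in the mutant, and 0.568 and 0.498 with BA, against 5.35 and 7.25 with DMSO in wild type. The lower value of DMSO replicate 1 gave both genes a larger positive change with both arrays than with replicate 2.

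As a test of the difference itself, 103 probe sets (0.453%) had a BA change that differed between the genotypes with replicate 2 alone, 44 with a higher and 59 with a lower change in the mutant. With both DMSO arrays 0 passed (0%; 1970, or 8.66%, at an unadjusted p under 0.05), and with any 1 of the 4 wild-type arrays left out of the 7 the count lay between 0 and 47. Leaving out mutant BA replicate 1 gave 151, and leaving out its mate gave 515. The file name prefix separates mutant from wild-type arrays. A BA change that depends on what the prefix stands for cannot be told apart from one that depends on genotype.

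**Figure D5:**
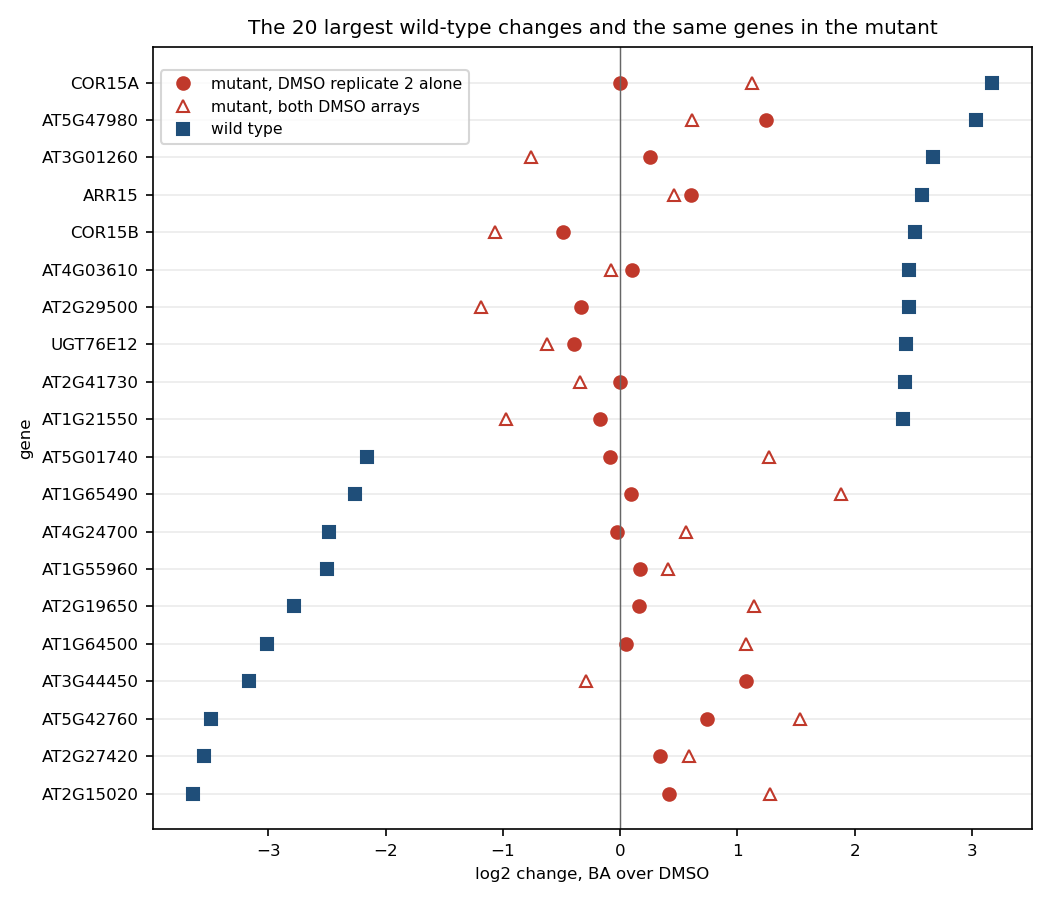
Log2 change with BA of the 20 named genes with the largest changes in wild type (10 higher, 10 lower), in the mutant against DMSO replicate 2 alone (red points), in the mutant against both DMSO arrays (open triangles) and in wild type (blue squares). The mutant values against replicate 2 lie between -0.49 and 1.24.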

How the data were processed

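RNA was measured on 8 single-colour Affymetrix arrays in 4 groups of 2, with groups and replicate numbers taken from the sample titles. The authors deposited 1 table of linear ratios, a reading of the unit that rests on the values. How probes were summarised and arrays scaled is not given in the sources used here. Of 22810 probe sets, 64 controls were left out of the tests and 22746 were tested. A probe annotation gave 1 gene for 13513 of them (59.4%), several for 503 and none for 8730, and 13436 of the named ones were found in the RefSeq gene table of assembly TAIR10.1, used for names only.

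The log2 of the ratio, with no offset, was fitted with limma 3.58.1 (R 4.3.3), 1 mean per group, and a probe set was called at a Benjamini-Hochberg adjusted p under 0.05. The fit with 8 arrays has 4 residual degrees of freedom and the one with 7 arrays has 3. Precision is limited by the number of arrays, and signal over background was not analysed here.

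The compared arrays, gene lists and families were chosen with earlier results of these data known, and 3 genes picked into families by symbol alone were removed by function. Named genes were all called probe sets, the 12 in each direction with the lowest p whose BA arrays lay on 1 side of both DMSO arrays, or of replicate 2, all response regulators, up to 6 genes of each other list or family with the lowest p, and the 10 in each direction that changed most in wild type. A gene with several probe sets is represented by the first in the file. Of 225 genes in 18 lists, 42 had a named probe set, in 12 lists. The lists on jasmonate repressors and synthesis, sugar starvation, nitrate, ethylene and housekeeping had 0. Promoter sequences were not analysed here. Alternatives were an offset of 1, quantile normalization, array weights, dim probe sets left out, the replicate number as a block, mutant arrays alone, and leaving out each array.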

Additional observations from a re-analysis of the deposited data

Results flagged for a closer look

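With mutant DMSO replicate 2 alone (7 arrays), the BA change of 26 of the named probe sets differed between the genotypes by the test of the difference itself (limma, Benjamini-Hochberg adjusted p under 0.05). With both mutant DMSO arrays none of the 26 passed, and the comparisons that named most of them share arrays with this test. Values are the mutant's log2 change minus that of wild type.

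The 8 probe sets called against replicate 2 were all below 0: 247360_at at -5.14, 261037_at at -3.61, 260405_at at -3.17, AT1G76640 at -3.08, CML37 at -2.18, AT5G56980 at -2.18, AT3G02840 at -2.12 and AT1G22810 at -1.88. The wild-type log2 changes of these 8 ran from -0.51 to 1.74. A higher value with BA in wild type is thus part of the difference for 247360_at (1.74), AT1G76640 (0.98), 260405_at (0.78) and 261037_at (0.49). The wild-type changes of 260405_at and 261037_at did not pass the test. The others lay there between -0.51 (AT1G22810) and 0.10 (CML37). Other genes below 0 with a high value on mutant DMSO replicate 2 were AT3G01830 (-3.49) and AT2G32140 (-2.50). GRX480, lower with BA than on each mutant DMSO array, stood at -2.64.

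Among genes that rose with BA in wild type, the difference was -3.0 for COR15B, -2.57 for AT1G21550 and -2.49 for AT5G54170. It was -2.36 for AT4G03610, -2.13 for RR16 and -1.91 for ORA47. AT5G54170 also had a high value on mutant DMSO replicate 2 (2.12). Its log2 change was -1.40 in the mutant against replicate 2 and 1.08 in wild type. Among genes that fell there, it was 4.24 for AT5G42760, 4.23 for AT3G44450, 4.06 for AT2G15020, 3.89 for AT2G27420, 2.94 for AT2G19650, 2.45 for AT4G24700 and 2.35 for AT1G65490. AT5G62130 stood at 2.50 and CYP71B26, a cytochrome P450 gene, at 2.08.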

How the results depend on the processing

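Against both mutant DMSO arrays, 0 probe sets passed under an offset of 1, quantile normalization, array weights, with dim probe sets left out, with the replicate block and with the mutant arrays alone. Leaving out 1 array gave 0 to 5488, with 8 without mutant DMSO replicate 1 and 5488 without mutant DMSO replicate 2, where replicate 1 is the only DMSO array. Against replicate 2 alone, the 8 calls became 49 with an offset of 1, 1 with quantile normalization, 5 with dim probe sets left out (CML37 and AT1G76640 are dim, and AT3G02840 had adjusted p = 0.0537), 0 with the replicate block and 0 with the mutant arrays alone, and 0 to 245 when 1 array was left out. Leaving out replicate 2 itself was not possible there. The cause of these shifts was not tested. For the difference between the genotypes, quantile normalization gave 18 with both DMSO arrays, and leaving out 1 array gave 0 to 4732. With replicate 2 alone the 103 became 0 with the replicate block, and 0 to 515 when 1 array was left out. Replicate numbers gave little sign of pairing: deviations from the group mean correlated at 0.12 between the mutant groups and at -0.17 between the wild-type groups. The check cannot settle whether samples were paired, as mutant DMSO replicate 1 stood apart and the labels do not say. Without mutant DMSO replicate 2 the log2 change with both DMSO arrays turned sign for 43 of 192 named probe sets. Among them AT5G56980 passed the test there, with a value of -0.63 that ran from -2.50 to 1.24 (adjusted p = 0.00935) over left-out arrays, and UGT84A3, at 0.02, ran from -0.82 (adjusted p = 0.0439) to 0.86.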

Other observations

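Single mutant arrays were marked by their own genes, chosen here after their values were seen as those with the widest gap to the next highest of the 8 arrays. The number of probe sets over 2-fold above all 7 other arrays was 84 and 20 on the mutant BA arrays (replicates 1 and 2), against 427 and 109 on the mutant DMSO arrays, and 2 to 14 on the wild-type arrays. On mutant BA replicate 1 the anthocyanin gene DFR was among them. AT5MAT, a malonyltransferase of anthocyanins, had relative values of 6.47 and 1.31 with BA, against 1.08 and 0.874 with DMSO. CHIL, a chalcone isomerase-like protein, had 4.73 and 0.978 with BA, against 1.02 and 1.19 with DMSO. The sugar transporter SWEET13 had 5.76 and 0.934 with BA, against 1.23 and 1.07 with DMSO. APL3, a subunit of the enzyme that makes the precursor of starch, had 9.26 and 0.902 with BA, against 1.38 and 1.60 with DMSO.

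On mutant BA replicate 2 the widest gap was that of AT4G33560, with 0.923 and 3.63 with BA, against 0.898 and 0.999 with DMSO. AT1G19530 had 0.962 and 6.70 with BA, against 1.04 and 2.09 with DMSO. On mutant DMSO replicate 1 the defensin gene PDF2.1 was far above its mate, with 0.950 and 0.654 with BA, against 12.7 and 0.888 with DMSO. ZIP6, a gene of the zinc transporter family, had 0.966 and 1.26 with BA, against 4.71 and 1.02 with DMSO. On mutant DMSO replicate 2 the expansin-like gene EXLA2 had its highest value, with 2.13 and 1.52 with BA, against 0.761 and 6.09 with DMSO. AT2G34930 had 0.733 and 1.42 with BA, against 0.355 and 6.07 with DMSO.

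Defensin genes of the jasmonate pathway were low on 3 of the 4 mutant arrays. PDF1.2 had relative values of 0.0215 and 0.121 with BA, against 0.954 and 0.0453 with DMSO in the mutant, and 1.15 and 1.05 with BA, against 1.79 and 1.61 with DMSO in wild type. PDF1.2b had 0.0322 and 0.182 with BA, against 0.889 and 0.116 with DMSO in the mutant. Mutant DMSO replicate 1 was the only mutant array within reach of the wild-type values, and the BA change of neither gene passed.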
